A study of Mus musculus with 44 samples.

Results

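The transcription factor AP-1 is built from pairs of leucine-zipper proteins, and 10 of its genes were followed by name: the Fos family (Fos, Fosb, Fosl1, Fosl2), the Jun family (Jun, Junb, Jund) and the partners Atf3, Maff and Mafk. They are 10 of the 54532 genes in each of a pair of gene-count tables, and each name matched a single row of both. Polyadenylated RNA was sequenced from 44 mouse libraries, 16 of the fibroblast line L929 and 28 of primary cortical neurons, with 4 libraries per group. The L929 groups carried FRMD5 isoform 2 as the full-length protein, without its intrinsically disordered regions (delta-IDR) or without its coiled-coil and low-complexity domains (delta-CC-LCD), or were the control. In neurons, control peptide at 100 µM was given without or with dexamethasone (DEX), which activates the glucocorticoid receptor, and an interfering peptide was given with DEX at 1, 3, 10, 30 or 100 µM, each for 4 hours. The series title places these groups in a study of FRMD5 and glucocorticoid receptor function. The design text describes the FRMD5 cells after 4 hours of DEX, and the labels do not say whether the L929 control received DEX, so DEX and construct cannot be told apart in any comparison with that control. Interfering peptide without DEX was not among the groups, control peptide matched its amount only at 100 µM, and the sources used here give neither the DEX concentration nor the strain, age and sex of the mice. L929 is an established line, and the labels do not say whether each construct line is a single clone or whether neurons of several animals were pooled.

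Fos proteins do not form stable pairs with themselves and bind DNA with a partner such as a Jun protein, whereas Jun proteins can also pair with each other. Many of these genes are immediate early genes, transcribed within minutes of growth factor, stress or synaptic signals through factors already present in the cell, such as CREB, SRF and MEF2, and their mRNAs decay fast. In neurons Fos and Fosb are widely used as markers of recent activity. The ligand-bound glucocorticoid receptor can itself hold back genes driven by AP-1.

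The promoters of Fos, Fosb, Junb and Jun are shown because these 4 genes changed most with peptide dose, and 1 of the windows of Maff because it held a complete cyclic AMP response element. Each window is the 250 bases before the RefSeq start of the gene, 5′ to 3′ on its own strand, from RefSeq on GRCm38.p6. Capitals mark motif matches.
Fos, chr12:85473640-85473889, plus strand: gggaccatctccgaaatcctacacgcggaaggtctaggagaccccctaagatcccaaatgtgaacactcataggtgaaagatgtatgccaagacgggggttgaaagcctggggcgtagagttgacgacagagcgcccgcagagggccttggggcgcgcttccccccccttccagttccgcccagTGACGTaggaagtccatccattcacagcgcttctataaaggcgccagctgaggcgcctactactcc
Fosb, chr7:19310046-19310295, minus strand: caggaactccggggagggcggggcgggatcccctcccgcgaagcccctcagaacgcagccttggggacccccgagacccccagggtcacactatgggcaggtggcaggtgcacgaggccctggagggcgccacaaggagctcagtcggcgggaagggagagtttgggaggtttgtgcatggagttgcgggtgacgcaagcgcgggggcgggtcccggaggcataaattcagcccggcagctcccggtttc
Junb, chr8:84978749-84978998, minus strand: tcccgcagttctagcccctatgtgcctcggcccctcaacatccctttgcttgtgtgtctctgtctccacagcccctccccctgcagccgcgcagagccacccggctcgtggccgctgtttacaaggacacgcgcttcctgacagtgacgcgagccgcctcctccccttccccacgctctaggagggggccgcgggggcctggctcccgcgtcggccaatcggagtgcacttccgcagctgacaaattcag
Jun, chr4:95052223-95052472, minus strand: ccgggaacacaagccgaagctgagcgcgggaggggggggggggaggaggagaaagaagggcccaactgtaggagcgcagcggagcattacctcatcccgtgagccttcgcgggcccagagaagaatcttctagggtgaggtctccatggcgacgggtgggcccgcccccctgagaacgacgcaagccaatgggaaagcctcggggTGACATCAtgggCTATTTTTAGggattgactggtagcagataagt
Maff, chr15:79347270-79347519, plus strand: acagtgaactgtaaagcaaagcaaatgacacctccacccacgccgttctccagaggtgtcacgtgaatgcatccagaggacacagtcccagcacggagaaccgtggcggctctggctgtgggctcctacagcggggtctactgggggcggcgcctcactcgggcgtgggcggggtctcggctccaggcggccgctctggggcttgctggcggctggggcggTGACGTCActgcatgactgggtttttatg

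Motifs were searched on both strands in the windows of the 9 members that the RefSeq table lists, 11 windows in all. The search covered the cyclic AMP response element TGACGTCA, bound by CREB and ATF proteins, its core TGACGT (each complete element also counts as a core), the AP-1 site TGANTCA, the jun1 site TGACATCA known from the Jun promoter, the glucocorticoid response element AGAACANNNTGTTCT, and the CArG box of SRF and the MEF2 box, both by name. Of 32851 mouse promoter windows of this length, 1.55% held the complete element, 6.47% the core, 6.75% the AP-1 site, 2.93% the jun1 site, 0.00913% the glucocorticoid element, 1.47% a CArG box and 0.508% a MEF2 box. The Fos window held 1 core from -66 to -61, counted from the start site. Jun held a jun1 site from -45 to -38 and a MEF2 box from -33 to -24. Atf3 (window not shown) had a MEF2 box from -22 to -13 and a core from -8 to -3. The Maff window shown held a complete element from -29 to -22, and another Maff window a jun1 site from -45 to -38. None of these letters were found in the windows of Fosb, Junb, Jund, Fosl2 and Mafk. The Jund window ends at 70697738 on chromosome 8, before the counted Jund gene, which starts at 70698949. The Atf3 window runs from 191183334 to 191183583 on chromosome 1. It lies inside the counted Atf3 gene, whose minus-strand start is at 191218039. The Fosl2 window and the Maff windows with matches also lie inside their counted genes. Bases farther than 250 from a RefSeq start were not searched, so absence holds for these windows only. A match is a description of the letters, and binding was not measured.

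In the mm10 coordinates of the tables, Fos lies on chromosome 12 from 85473890 to 85477273 on the plus strand, Fosb on chromosome 7 (minus) from 19302696 to 19310051, and Junb on chromosome 8 (minus) from 84974484 to 84978718. On the minus strand of chromosome 4, Jun runs from 95049034 to 95052222. The counts are of whole genes. Strand is unstated, so reads of overlapping genes cannot be separated: Junb overlaps Prdx2, Jun its antisense gene Junos, Fosl1 Ccdc85b, Mafk Tmem184a, Jund Gm11175 and Atf3 Gm24748.

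Total counts ran from 17211270 to 18313407 in L929 and from 13685236 to 17083701 in neurons, and values below are counts per 1000000 (CPM) after TMM scaling. Over the groups of a table, libraries 1 and 3, and libraries 2 and 4, had a lower median chi-square per degree of freedom than other pairs of their group (2.5 against 4.1 in neurons and 3.9 against 6.07 in L929). This did not hold in every group, and in L929 delta-CC-LCD libraries 1 and 3 were the least alike pair (9.41). No pair agreed within sampling noise, the lowest ratio being 2.08, so all 4 libraries were kept. Whether the 4 libraries of a group are separate cultures is not stated, so each p-value reflects only library-to-library spread, which may be technical. The 9 neuron markers summed to between 3179 and 3839 CPM in every neuron library and to at most 1.68 CPM in L929. L929 libraries held between 6478 and 8260 CPM of 7 fibroblast markers, although the fibroblast proteoglycan genes Dcn and Lum were at 0 counts in all of them except delta-IDR library 3, which had 22 and 18. In bulk RNA, fewer cells of a type and less RNA per cell cannot be told apart.

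Fos rose with the interfering peptide from 3 µM upward. In the 4 libraries with control peptide it stood at 21.7, 25.2, 19.98 and 25.3 CPM without DEX and at 22.8, 20.8, 19.3 and 23.2 CPM with DEX. With DEX and interfering peptide it read 22.9, 27.98, 23.0 and 36.1 CPM at 1 µM, 73.9, 82.2, 70.6 and 78.8 CPM at 3 µM, and 103, 107, 115 and 105 CPM at 10 µM. At 30 µM the libraries held 152, 141, 146 and 141 CPM, and at 100 µM 180, 131, 174 and 135 CPM. The libraries at 3, 10 and 30 µM formed 3 separate ranges, each above the last, while the range at 100 µM enclosed that at 30 µM and the range at 1 µM overlapped both control groups. Against control peptide with DEX the log2 change was 0.35 ± 0.14 at 1 µM (SE; edgeR adjusted p = 0.211), 1.83 ± 0.13 at 3 µM, 2.32 ± 0.13 at 10 µM, 2.75 ± 0.12 at 30 µM and 2.85 ± 0.12 at 100 µM (adjusted p = 1.06e-13 at 100 µM). That last change is a 7.2-fold higher level.

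Fosb, whose longer and truncated protein forms are both made from this gene, followed nearly the same course at a lower level. It read 7.26, 10.1, 6.86 and 9.95 CPM without DEX, 9.21, 7.03, 10.4 and 11.995 CPM with DEX, and 11.1, 12.6, 10.5 and 11.2 CPM at 1 µM. The libraries at 3 µM held 31.0, 39.6, 29.6 and 40.3 CPM, those at 10 µM 50.4, 46.7, 50.9 and 45.4 CPM, those at 30 µM 71.6, 64.3, 66.8 and 60.1 CPM, and those at 100 µM 63.3, 57.1, 66.5 and 61.3 CPM. Every library at 3 µM or more lay above every library at 1 µM or in the control groups, and the libraries at 30 and 100 µM overlapped. The log2 change over control peptide with DEX was 0.23 ± 0.14 at 1 µM (adjusted p = 0.45), 1.87 ± 0.12 at 3 µM, 2.32 ± 0.12 at 10 µM, 2.77 ± 0.12 at 30 µM and 2.68 ± 0.12 at 100 µM (adjusted p = 3.56e-17 at 100 µM).

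Among the Jun family Junb, often a weaker activator than Jun, changed most. It stood at 9.93, 9.78, 9.65 and 9.95 CPM without DEX, 10.6, 8.62, 9.05 and 10.9 CPM with DEX, and 8.08, 10.5, 9.28 and 11.2 CPM at 1 µM. It then read 15.5, 19.2, 12.6 and 20.5 CPM at 3 µM, 28.7, 24.4, 31.2 and 27.7 CPM at 10 µM, 32.7, 33.5, 32.9 and 34.8 CPM at 30 µM, and 49.6, 29.9, 47.3 and 34.0 CPM at 100 µM. The ranges at 3, 10 and 30 µM did not overlap, and at 100 µM libraries 1 and 3 stood well above libraries 2 and 4. Over control peptide with DEX the log2 change was -0.00 ± 0.16 at 1 µM (adjusted p = 0.996), 0.79 ± 0.15 at 3 µM, 1.51 ± 0.15 at 10 µM, 1.77 ± 0.15 at 30 µM and 2.04 ± 0.14 at 100 µM. With libraries summed in pairs, the call at 3 µM was lost (adjusted p = 0.17), and those at 10, 30 and 100 µM remained. Prdx2, the peroxidase gene that Junb overlaps, was itself at 551 ± 15.4 CPM at 100 µM and 483.6 ± 16.2 CPM with control peptide and DEX.

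Jun, the member with the highest mean level per gene length in every neuron group, was called from 10 µM upward. It was also the sole member called for DEX alone, where 10.8% of all genes were called in either direction. Its libraries held 107, 122, 103 and 123 CPM without DEX, 149, 162, 141 and 161 CPM with DEX, and 153, 158, 156 and 158 CPM at 1 µM. They held 177, 194, 165 and 186 CPM at 3 µM, 232, 198, 250 and 202 CPM at 10 µM, 285, 254, 270 and 257 CPM at 30 µM, and 372, 238, 377 and 254 CPM at 100 µM. Libraries with DEX and control peptide all lay above those without DEX, and libraries 2 and 4 at 100 µM fell in or below the range at 30 µM whereas libraries 1 and 3 were far above it. The log2 change over control peptide with DEX was 0.03 ± 0.12 at 1 µM, 0.24 ± 0.12 at 3 µM (adjusted p = 0.273), 0.53 ± 0.12 at 10 µM, 0.80 ± 0.12 at 30 µM and 1.02 ± 0.12 at 100 µM (adjusted p = 1.5e-06). Summing libraries in pairs ended the calls at 10 µM (adjusted p = 0.376) and 30 µM (adjusted p = 0.0726) but not at 100 µM (adjusted p = 0.0181). Junos, antisense to Jun, was low, at 1.22 ± 0.458 CPM at 100 µM and 1.85 ± 0.17 CPM with control peptide and DEX.

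**Figure D1:**
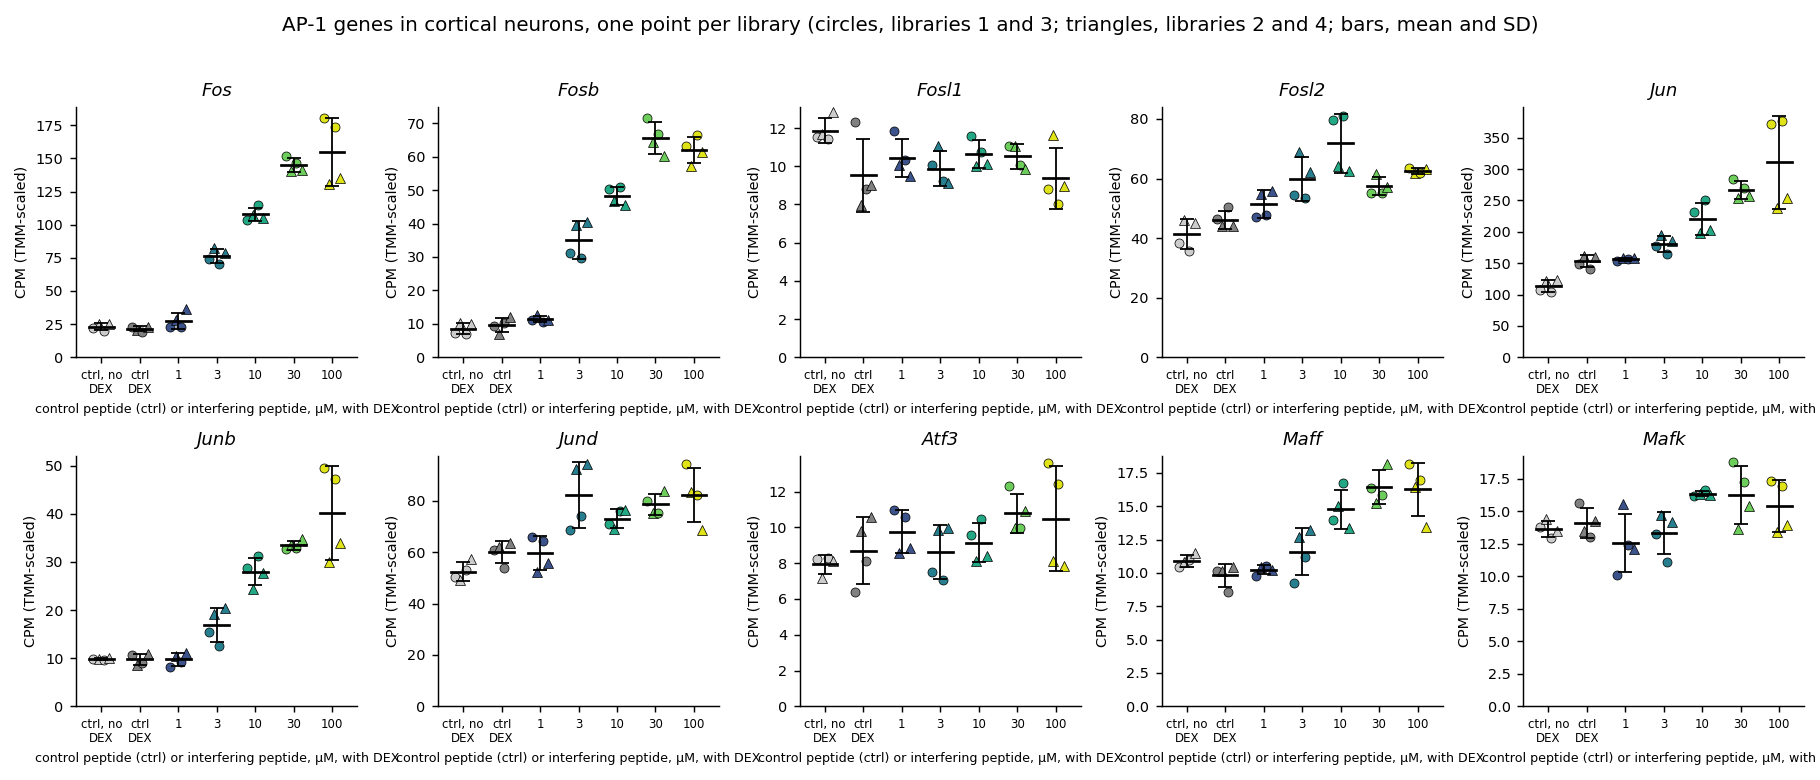
CPM of each of the 10 genes (y axis, from 0) in every neuron library by group (x axis, control peptide without and with DEX, then interfering peptide with DEX at 1 to 100 µM); points are libraries, circles for 1 and 3 and triangles for 2 and 4, and bars give mean and SD of 4. Fos reaches a mean of 154.9 CPM at 100 µM against 21.5 CPM with control peptide and DEX, whereas Fosl1 stays between 7.99 and 12.8 CPM in every library.

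Maff, a small Maf protein that lacks an activation domain of its own, was called from 10 µM upward. At 100 µM its libraries held 18.2, 16.5, 16.9 and 13.5 CPM, against 10.2, 10.1, 8.54 and 10.4 CPM with control peptide and DEX, and the groups did not overlap. The log2 change was 0.59 ± 0.11 at 10 µM, 0.74 ± 0.11 at 30 µM and 0.73 ± 0.11 at 100 µM (adjusted p = 1.26e-06), with 0.06 ± 0.11 at 1 µM and 0.24 ± 0.11 at 3 µM (adjusted p = 0.2).

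Fosl2, which encodes the Fos-related antigen Fra-2, had its highest mean at 10 µM. Its libraries read 79.6, 64.1, 81.1 and 62.4 CPM at 10 µM and 63.7, 61.8, 61.8 and 63.0 CPM at 100 µM, against 46.5, 43.9, 50.3 and 43.9 CPM with control peptide and DEX. The log2 change of 30 over 10 µM was -0.32 ± 0.09 (adjusted p = 0.08). All libraries at 10 and at 100 µM were above all of the control peptide libraries with DEX. The log2 change was 0.38 ± 0.09 at 3 µM, 0.64 ± 0.09 at 10 µM, 0.31 ± 0.09 at 30 µM and 0.44 ± 0.09 at 100 µM, each called. With libraries summed in pairs none of these 4 calls remained (adjusted p = 0.3, 0.0623, 0.224 and 0.0561). The call at 3 µM was also lost without library 2 at 3 µM (log2 change 0.29), and that at 30 µM without control peptide library 2 or 4 or 30 µM library 2 (lowest log2 change 0.28).

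Jund, the broadly expressed member of the Jun family, was called at 3, 30 and 100 µM, with log2 changes of 0.46 ± 0.10, 0.39 ± 0.10 and 0.45 ± 0.10, and at 10 µM it read 0.28 ± 0.10 (adjusted p = 0.0954). At 100 µM the libraries held 94.2, 83.4, 82.4 and 68.5 CPM, against 60.7, 62.0, 53.9 and 63.6 CPM with control peptide and DEX, with no overlap. Summing libraries in pairs ended its calls at 3 µM (adjusted p = 0.139) and 30 µM (adjusted p = 0.0892).

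Fosl1, Atf3 and Mafk were not called at any dose against control peptide with DEX. Fosl1, which encodes Fra-1, ran from 8.01 to 11.6 CPM at 100 µM against 7.99 to 12.3 CPM with control peptide and DEX (log2 change -0.03 ± 0.12, adjusted p = 0.902). Atf3, a stress-induced member of the ATF/CREB family, ran from 7.82 to 13.6 CPM at 100 µM against 6.37 to 10.6 CPM (0.27 ± 0.15, adjusted p = 0.21), with libraries 1 and 3 the higher ones at 100 µM. Mafk, another small Maf, ran from 13.4 to 17.3 CPM against 13.0 to 15.6 CPM (0.13 ± 0.11, adjusted p = 0.431).

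Counted over the 10 members, calls against control peptide with DEX numbered 0 at 1 µM, 5 at 3 µM, 6 at 10 µM, 7 at 30 µM and 7 at 100 µM, and each of them was a rise. At 1 µM 1 member (Fos) had an unadjusted p under 0.05, and DESeq2 called 0. Of all 17837 genes tested, 2.29% were called in either direction at 1 µM, and 1.4%, 2.88%, 3.17%, 8.62% and 11.9% were called higher at these doses. The median log2 change of the members was 0.09, 0.31, 0.56, 0.56 and 0.59, with medians between -0.01 and 0.01 over all genes. Groups without overlap were seen for 8.4%, 9.34%, 11.1%, 18.9% and 22.7% of all genes at these doses. These 5 comparisons share the same 4 control peptide libraries. With libraries summed in pairs the count was 2 at 3 µM and 4 at 30 µM. The calls of Jun and Fosl2 at 10 µM and of Fosl2 at 100 µM were lost as well.

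**Figure D2:**
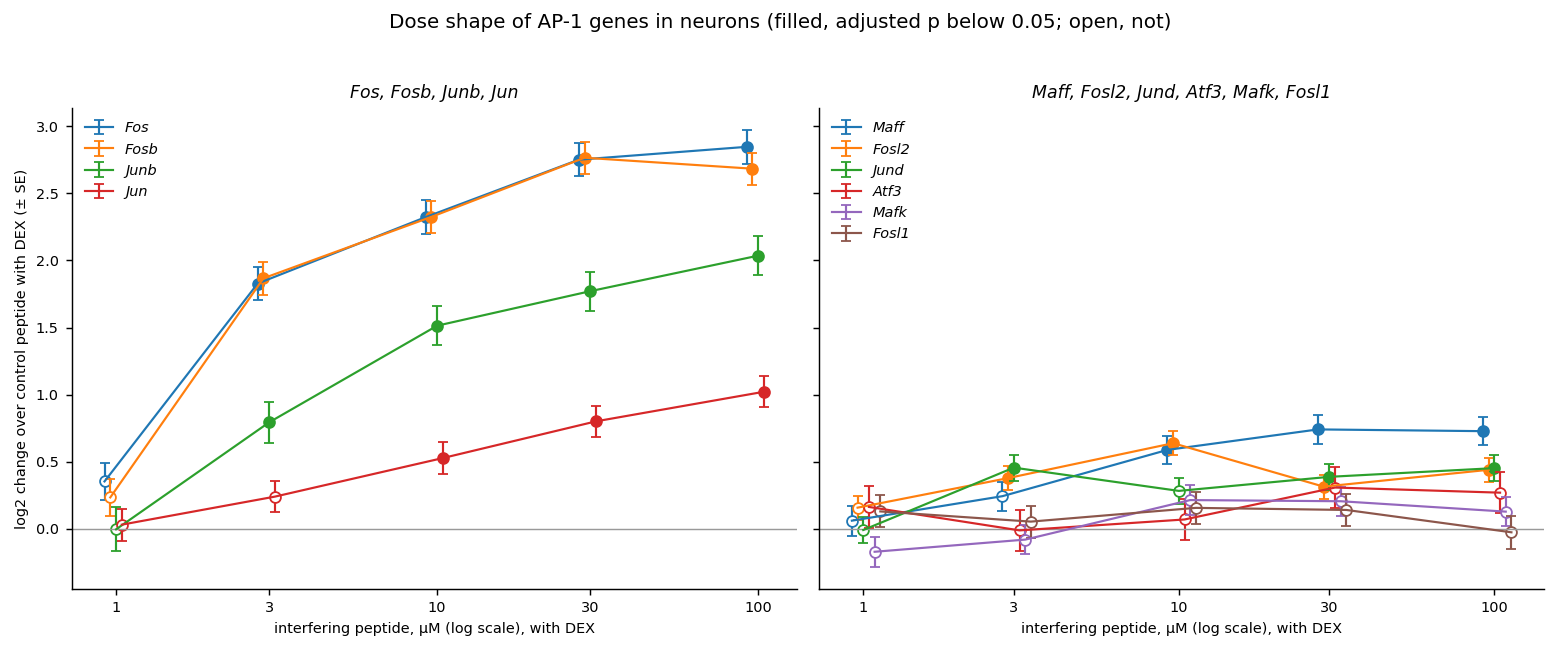
Log2 change over control peptide with DEX (y axis, ± SE) against interfering peptide dose in µM (x axis, log scale), for the 4 genes that changed most (left) and the other 6 (right); filled points had an adjusted p below 0.05. Fos and Fosb step up between 1 and 3 µM and differ little between 30 and 100 µM, Junb and Jun have their highest values at 100 µM, and the genes at right stay below 0.75.

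The shape was also tested within the 20 interfering peptide libraries alone, which leaves the control peptide out. Per 10-fold of dose, Fos changed by 1.10 ± 0.13, Fosb by 1.05 ± 0.15, Junb by 0.97 ± 0.09, Jun by 0.51 ± 0.05, Maff by 0.36 ± 0.05 and Mafk by 0.18 ± 0.06 on the log2 scale. These 6 slopes were called, against 9.46% of 17349 genes called with a rising slope. The call for Mafk (adjusted p = 0.0235) was lost with libraries summed in pairs (adjusted p up to 0.114) and without 1 µM library 1 or 4 (lowest log2 slope on this dose scale 0.14). The slope of Jund was 0.16 ± 0.06 (adjusted p = 0.0717), that of Atf3 0.11 ± 0.07, that of Fosl2 0.10 ± 0.06 and that of Fosl1 -0.04 ± 0.05.

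The curvature term on log10 dose was -0.78 ± 0.12 for Fos (adjusted p = 0.00161), -0.95 ± 0.10 for Fosb (adjusted p = 2.12e-05) and -0.44 ± 0.11 for Junb (adjusted p = 0.0413), a bend towards a plateau at high dose. Of all genes, 1.32% were called with a bend of that direction. Jun, with -0.00 ± 0.09 (adjusted p = 0.999), did not depart detectably from a straight line on log dose. The calls for Fos (adjusted p = 0.238) and Fosb (adjusted p = 0.0693) were lost with libraries summed in pairs, and that of Junb was lost in 16 of 25 alternatives, 13 of which left out a single library (range -0.52 to -0.38 over the 25). Those were library 1, 2 or 3 at 1 µM, 2 at 3 µM, 1, 3 or 4 at 10 µM, any at 30 µM and 2 or 4 at 100 µM, and the others were pair sums, the replicate block and no low-count filter.

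Neighbouring doses were also compared. For 3 over 1 µM, 4 members were called, against 3.31% of genes called higher: Fosb with 1.63 ± 0.12, Fos with 1.48 ± 0.12, Junb with 0.80 ± 0.15 and Jund with 0.47 ± 0.10. For 10 over 3 µM there were 3, against 0.37% of genes: Junb with 0.72 ± 0.14 (adjusted p = 0.00501), Fos with 0.49 ± 0.11 (adjusted p = 0.0384) and Fosb with 0.46 ± 0.10 (adjusted p = 0.0269). Fosb alone was called for 30 over 10 µM (0.44 ± 0.10, adjusted p = 0.0217, against 0.308% of genes), beside 0.43 ± 0.11 for Fos (adjusted p = 0.0699). For 100 over 30 µM edgeR and DESeq2 each called 0 members, against 2.73% of genes called in either direction, and 1 member had an unadjusted p under 0.05. The log2 changes of that last step ran from -0.17 ± 0.12 for Fosl1 to 0.26 ± 0.13 for Junb. With libraries summed in pairs, the calls of Fos and Fosb for 3 over 1 µM remained and the other step calls were lost. The Fos call for 10 over 3 µM was also lost without any single library of either group (lowest log2 change 0.46), the Fosb call without library 1, 2 or 3 at 10 µM or 1 or 3 at 3 µM, and the Fosb call for 30 over 10 µM without any single library of either group except 30 µM library 4. All 3 of these calls were lost with the replicate block.

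DEX with control peptide, set against control peptide without DEX, moved 1 of 10 members past the threshold, with 10.8% of all genes called in either direction. That count is near the background. Jun rose by 0.43 ± 0.12 (adjusted p = 0.0252), and its groups did not overlap, as was seen for 16.1% of all genes. The call was lost without DEX library 2 or 4, without no-DEX library 1 or 3 (lowest log2 change 0.38) and with libraries summed in pairs (adjusted p up to 0.297). Fos changed by -0.10 ± 0.14 (adjusted p = 0.712), Fosb by 0.18 ± 0.14, Junb by -0.00 ± 0.16 and Fosl1 by -0.31 ± 0.12 (adjusted p = 0.077), the last called without DEX library 1 (log2 change -0.46).

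With DEX and 100 µM of interfering peptide against control peptide without DEX, where peptide and DEX both differ, 8 members rose and 1 fell, against 17.4% and 17.7% of all genes. Fosb stood at 2.86 ± 0.12, Fos at 2.75 ± 0.12, Junb at 2.03 ± 0.14, Jun at 1.45 ± 0.12, Jund at 0.65 ± 0.10, Fosl2 at 0.60 ± 0.09 and Maff at 0.57 ± 0.10 on the log2 scale. Atf3 (0.40 ± 0.15, adjusted p = 0.0393) and Fosl1 (-0.34 ± 0.12, adjusted p = 0.022) were called with overlapping groups. Atf3 lost its call without any of the 4 no-DEX libraries and without 100 µM library 1 or 3 (lowest log2 change 0.25), and also with the replicate block, with only the compared groups fitted and with libraries summed in pairs (adjusted p up to 0.234 over all alternatives). The Fosl1 call was lost without no-DEX library 4 or 100 µM library 1, 3 or 4 (nearest to 0, -0.27) and with libraries summed in pairs.

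Levels of different genes were set side by side per gene length. On the scale of CPM per kilobase of gene length, Jun had the highest mean of the 10 members in all 7 groups. It averaged 97.4 ± 23.3 at 100 µM (SD, n = 4) and 48.0 ± 3.08 with control peptide and DEX. Fos, at 65.9 ± 10.9 and 9.14 ± 0.775 in these groups, ranked 2 of 10 at 10, 30 and 100 µM and 3 of 10 in the other 4 groups. Fosb moved in rank to 5 of 10 at 100 µM, where it stood at 9.94, against 10 of 10 with control peptide and DEX, where it stood at 1.54. At 100 µM the libraries of Jun overlapped those of Fos, and those of Fos those of Jund, so that order holds for means only. Libraries also overlapped between Jun and Jund without DEX and at 3 µM, and between Fos and Jund at 10 µM. With control peptide and DEX the levels of Jun, Jund, Fos and Fosb were each separate from their neighbours, and those from Fosl1 to Mafk overlapped in sequence.

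The 7 Fos and Jun family genes summed to 93.8 CPM per kilobase without DEX, 109 with DEX and control peptide, and 114, 163, 192, 229 and 252 at 1, 3, 10, 30 and 100 µM. Fos made up 10.4% of that sum without DEX, 8.36% with DEX and control peptide, and 10.3%, 19.9%, 23.9%, 26.9% and 26.2% along the doses. Jund made up 19.8% at 100 µM and 32.9% with control peptide and DEX. The share of Jun was 38.3% and 43.9% in these groups. These shares are of transcripts, and protein was not measured.

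**Figure D3:**
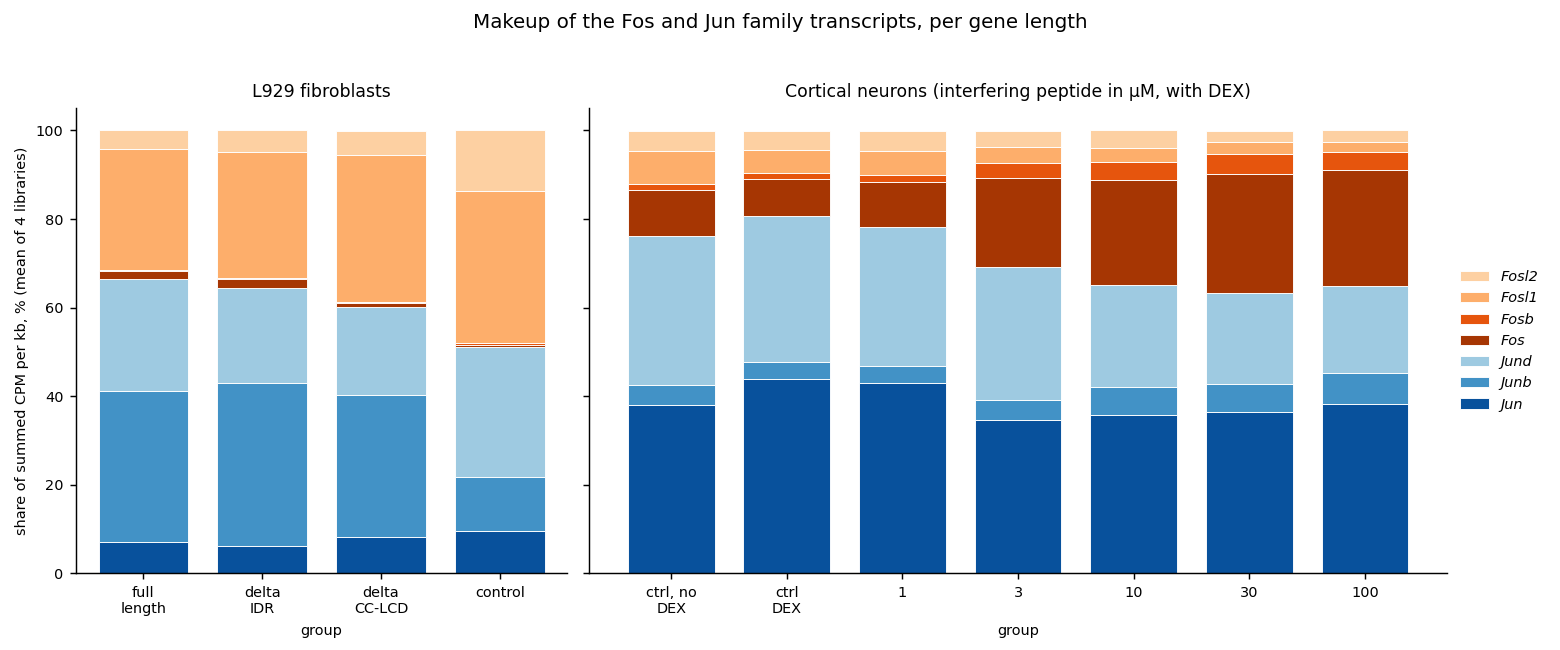
Share of each Fos and Jun family gene (y axis, percent of the summed CPM per kilobase, mean of 4 libraries) in the 4 L929 groups (left) and 7 neuron groups (right); blue bars are Jun genes and orange bars Fos genes. In neurons Fos widens to 26.2% at 100 µM against 8.36% with control peptide and DEX; in L929 Junb widens to 33.9% in the full-length group against 12.2% in the control. The tables were scaled separately.

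Other genes with the same group pattern were looked for among protein-coding genes, by the root mean square difference of centred log2 group means over the 7 neuron groups. Closest to Fos was Fosb (0.102), then Egr1 (0.282) and Npas4 (0.382), both activity-induced transcription factors. Closest to Jun were Sertad1 (0.106), Dusp1 (0.112), a phosphatase that switches off MAP kinases, and Fbxo33 (0.129). Closest to Junb were Vgf (0.203), a neuropeptide precursor, Nr4a1 (0.218), an orphan nuclear receptor of the immediate early class, and Npas4 (0.295).

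Genes around AP-1 were followed at 100 µM against control peptide with DEX. Of 24 genes for upstream kinases and activators, 8 were called higher and 0 lower, against 11.9% and 11.5% of all genes, with a median log2 change of 0.10 beside -0.01 for all genes. Mef2d rose by 0.41 ± 0.05, the ternary complex factor gene Elk4 by 0.44 ± 0.07 and Mef2c by 0.54 ± 0.11. Srf, whose product binds the serum response element, was called at 3 µM (0.48 ± 0.11, adjusted p = 0.01). At that dose 4 of the 24 were called, each higher, against 2.88% of all genes called higher. The curvature of Srf on log10 dose was -0.41 ± 0.09 (adjusted p = 0.016). At 30 µM 6 of the 24 were called higher, against 8.62% of all genes. Mkl1 alone was called lower at 30 µM (-0.25 ± 0.06, adjusted p = 0.00452), and it was called higher for 100 over 30 µM (0.26 ± 0.06, adjusted p = 0.0156). It stood at 40.9 ± 2.27 CPM at 100 µM, against 40.8 ± 1.94 CPM with control peptide and DEX.

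Of 14 tested genes (15 listed) for AP-1 protein turnover and mRNA decay, 7 rose and 1 fell at 100 µM, against 11.9% of all genes called higher and 11.5% lower. Zfp36, whose protein binds AU-rich elements and speeds decay of early-gene mRNAs, rose by 1.00 ± 0.12 to 17.6 ± 2.12 CPM at 100 µM, against 8.74 ± 1.03 CPM with control peptide and DEX. The pseudokinase gene Trib1 rose by 0.59 ± 0.11, and Det1, part of a ubiquitin ligase that targets Jun, changed by -0.70 ± 0.10. Of 14 tested other leucine-zipper partners (18 listed), 3 were called higher and 3 lower beside the same shares, among them Bach1 (0.26 ± 0.05), Atf2 (0.25 ± 0.05) and Nfe2l2 (-0.42 ± 0.11).

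Of 22 tested genes (28 listed) known as AP-1 targets, 3 rose and 2 fell at 100 µM, with a median log2 change of 0.04 beside -0.01 for all genes. With 11.9% of all genes called higher and 11.5% lower, these counts are near the background. Ptgs2, the inducible cyclooxygenase, stood at 3.85 ± 1.11 CPM at 100 µM against 1.60 ± 0.318 CPM with control peptide and DEX (1.26 ± 0.26). The chemokine gene Ccl2 was at 4.36 ± 1.13 CPM against 0.713 ± 0.169 CPM (2.60 ± 0.50), and Hmox1, haem oxygenase, at 7.63 ± 1.97 CPM against 17.4 ± 1.5 CPM (-1.19 ± 0.15). The summed neuron markers at 100 µM were 3711 ± 119 CPM against 3383 ± 78.6 CPM, and the 7 fibroblast markers 154.7 ± 11.1 CPM against 183.6 ± 5.02 CPM, with all 9 neuron markers detected in both groups. The 5 microglia markers summed to between 22.65 and 26.02 CPM at 100 µM, against 19.61 to 21.4 CPM with control peptide and DEX, and those of astrocytes, oligodendrocyte lineage and vessels overlapped between the groups. The part of these shifts in the results was not tested.

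In L929, the FRMD5 groups had higher Fos, Junb, Atf3, Mafk and Fosl1 and lower Fosl2 than the control, whose DEX status the labels leave out. Fos was low throughout, at 10.5, 14.3, 10.4 and 15.8 CPM in the full-length libraries, 11.5, 11.99, 11.3 and 11.4 CPM in delta-IDR and 5.92, 6.92, 6.16 and 4.67 CPM in delta-CC-LCD, against 1.99, 2.24, 2.13 and 1.89 CPM in the control. Every construct library was above every control library, and the delta-CC-LCD libraries lay between the control and the other constructs without overlap. Separation from the control, here and for the genes below, was common. It was seen for 53.7% of all genes tested with full-length, 58.8% with delta-IDR and 59.4% with delta-CC-LCD. The log2 change over the control was 2.62 ± 0.15 for full-length (adjusted p = 1.8e-15), 2.48 ± 0.15 for delta-IDR and 1.52 ± 0.16 for delta-CC-LCD.

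Junb held 208, 260, 224 and 257 CPM in full-length, 179, 201, 222 and 232 CPM in delta-IDR and 194, 180, 180 and 185 CPM in delta-CC-LCD, against 44.7, 47.2, 46.3 and 44.8 CPM in the control. The construct groups stood far above the control and delta-IDR overlapped both others. Its log2 change over the control was 2.38 ± 0.08 for full-length (adjusted p = 8.55e-14), 2.19 ± 0.08 for delta-IDR and 2.01 ± 0.08 for delta-CC-LCD. Prdx2, which overlaps Junb, was at 170.2 ± 12.03 CPM in full-length and 136.8 ± 4.39 CPM in the control.

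Atf3 was near the limit of detection. Its counts were 20, 21, 9 and 14 in full-length, 8, 5, 9 and 11 in delta-IDR and 24, 17, 16 and 11 in delta-CC-LCD, against 4, 2, 5 and 1 in the control. Each construct group was above the control, and the fitted log2 changes of 2.56 ± 0.47, 1.54 ± 0.52 and 2.62 ± 0.47 rest on 12 control counts in all.

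Mafk rose in all 3 construct groups. It held 75.7, 68.2, 78.0 and 64.4 CPM in full-length, 55.6, 55.3, 55.3 and 55.4 CPM in delta-IDR and 51.6, 53.0, 56.3 and 54.2 CPM in delta-CC-LCD, against 32.9, 32.7, 29.8 and 33.1 CPM in the control. The full-length libraries were the highest, and the truncations overlapped each other. The log2 change over the control was 1.15 ± 0.06 for full-length (adjusted p = 6.55e-17), 0.78 ± 0.06 for delta-IDR and 0.74 ± 0.06 for delta-CC-LCD.

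Fosl2 was lower in the construct groups. Its libraries held 128, 128, 117 and 129 CPM in full-length, 125, 112, 109 and 113 CPM in delta-IDR and 161, 136, 119 and 124 CPM in delta-CC-LCD, against 230, 207, 225 and 198 CPM in the control. All 12 construct libraries were below all control libraries. The log2 changes were -0.78 ± 0.08, -0.91 ± 0.08 and -0.67 ± 0.08 for full-length, delta-IDR and delta-CC-LCD over the control, and each was called.

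Fosl1, which per gene length had the highest mean of the Fos family in all 4 L929 groups, ran from 124 to 158 CPM in full-length, 115 to 123 CPM in delta-IDR and 126 to 163 CPM in delta-CC-LCD, against 90.3 to 103 CPM in the control. It was called in each, by 0.56 ± 0.10, 0.30 ± 0.10 and 0.57 ± 0.10. In full-length, Fosl1 read 124 and 126 CPM in libraries 1 and 3 and 156 and 158 CPM in libraries 2 and 4. Fos, Fosb, Jun and Junb were likewise higher in full-length libraries 2 and 4 than in 1 and 3, while Jund and Mafk were lower. Ccdc85b, which overlaps Fosl1, was lower in the constructs, at 14.9 ± 1.45 CPM in full-length and 37.4 ± 2.73 CPM in the control. Maff ran from 22.8 to 35.9 CPM over the constructs and from 31.2 to 37.9 CPM in the control, and its log2 change for delta-CC-LCD of -0.31 ± 0.12 (adjusted p = 0.0313) was lost without control library 1, 3 or 4 or delta-CC-LCD library 2, 3 or 4 (nearest to 0, -0.21), with the replicate block and with only the compared groups fitted (adjusted p up to 0.112 over all alternatives).

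Jun, Jund and Fosb differed between the constructs. Jun held 59.9, 88.0, 55.5 and 77.4 CPM in full-length, 49.7, 43.7, 50.5 and 47.3 CPM in delta-IDR and 71.2, 65.3, 68.0 and 61.0 CPM in delta-CC-LCD, against 52.5, 48.2, 52.5 and 48.2 CPM in the control. Its delta-IDR libraries overlapped the control (-0.08 ± 0.12, adjusted p = 0.604), and those of full-length (0.48 ± 0.12, adjusted p = 0.00275) and delta-CC-LCD (0.40 ± 0.12, adjusted p = 0.00853) lay above it. Both calls were lost with libraries summed in pairs (adjusted p = 0.0644 and 0.0893). Junos was at 19.0 ± 0.468 CPM in full-length, 8.68 ± 1.18 CPM in delta-IDR and 13.98 ± 4.88 CPM in delta-CC-LCD, against 18.4 ± 2.34 CPM in the control.

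Jund held 133, 124, 133 and 122 CPM in full-length, 80.9, 86.9, 90.1 and 90.3 CPM in delta-IDR and 108, 83.6, 69.4 and 72.6 CPM in delta-CC-LCD, against 78.6, 72.8, 86.7 and 79.8 CPM in the control. The full-length libraries alone were separate from all others. Its log2 change over the control was 0.69 ± 0.11 for full-length (adjusted p = 0.000102), 0.13 ± 0.11 for delta-IDR and 0.07 ± 0.11 for delta-CC-LCD.

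Fosb held 6.44, 7.34, 5.77 and 7.18 CPM in full-length, 5.64, 6.02, 5.84 and 7.17 CPM in delta-IDR and 5.26, 3.70, 4.84 and 3.02 CPM in delta-CC-LCD, against 4.02, 4.27, 3.95 and 3.41 CPM in the control. Only the delta-CC-LCD libraries overlapped the control. Its log2 change was 0.77 ± 0.15, 0.66 ± 0.15 and 0.10 ± 0.16 in the same order of constructs, the last with an adjusted p of 0.589.

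**Figure D4:**
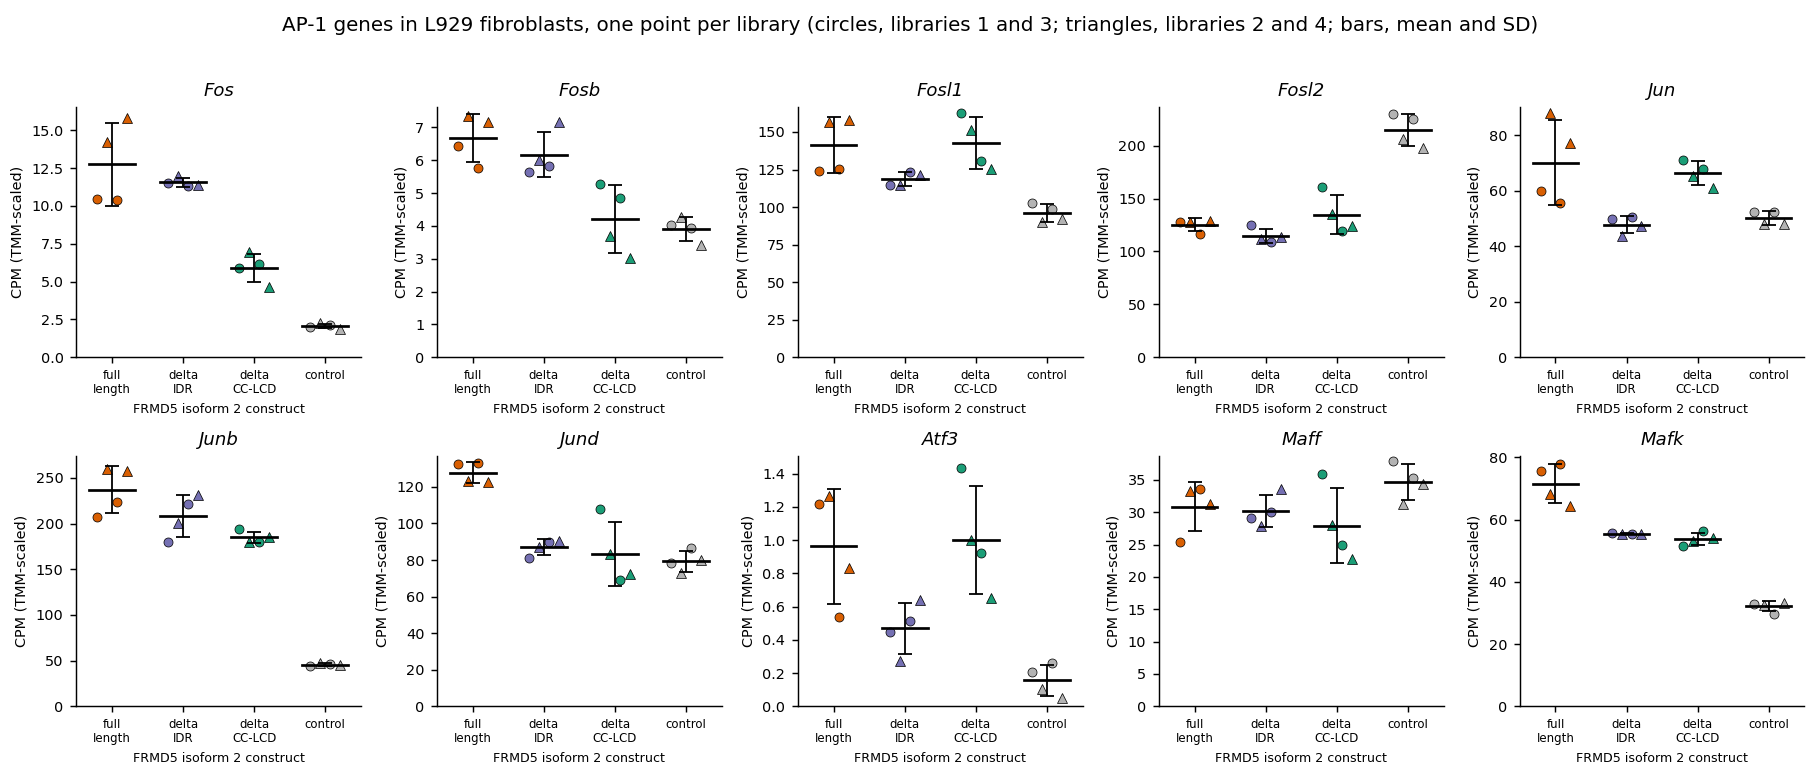
CPM of each of the 10 genes (y axis, from 0) in every L929 library by group (x axis: full-length, delta-IDR, delta-CC-LCD, control); points are libraries, circles for 1 and 3 and triangles for 2 and 4, and bars give mean and SD of 4. Junb averages 237.4 CPM in full-length against 45.8 CPM in the control, and Fosl2 125.5 CPM against 215.2 CPM.

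Against the control, 8 members rose and 1 fell with full-length, 6 rose and 1 fell with delta-IDR, and 6 rose and 2 fell with delta-CC-LCD. These comparisons called 59.1%, 64.4% and 64.6% of 14118 genes in either direction, with 30.3%, 32.8% and 31.9% called higher and 28.7%, 31.6% and 32.7% called lower, and share their 4 control libraries. Counted in either direction, the 7 members called with delta-IDR and the 8 called with delta-CC-LCD are near these shares of all genes. The median log2 change of the members was 0.73, 0.48 and 0.49, beside -0.01, -0.01 and -0.02 for all genes. Leaving out delta-IDR library 3, the one with Dcn and Lum reads, left the count for delta-IDR at 7.

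The comparisons between constructs do not use the control. With delta-IDR against full-length, 3 of 10 members fell, against 13.6% of genes called lower: Jun (-0.56 ± 0.12, adjusted p = 0.00311), Jund (-0.55 ± 0.11, adjusted p = 0.00207) and Mafk (-0.37 ± 0.06, adjusted p = 9.89e-06). DESeq2 called 5, and the Jun call was lost with libraries summed in pairs (adjusted p = 0.104). Fos, at -0.14 ± 0.12, Fosb, at -0.12 ± 0.15, and Junb, at -0.19 ± 0.08 (adjusted p = 0.0825), were not called. The groups of Fos overlapped.

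With delta-CC-LCD against full-length, 5 members fell, against 10.9% of genes called lower. These were Fos (-1.10 ± 0.13, adjusted p = 8.83e-07), Fosb (-0.67 ± 0.15, adjusted p = 0.00252), Jund (-0.62 ± 0.11, adjusted p = 0.00161), Mafk (-0.41 ± 0.06) and Junb (-0.36 ± 0.08), each with groups that did not overlap. Non-overlap of this kind was seen for 19.6% of all genes tested.

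A direct test of delta-IDR against delta-CC-LCD called 2 members higher and 3 lower, against 11.6% and 10.7% of genes. Fos was higher by 0.96 ± 0.13 (adjusted p = 2.31e-06) and Fosb by 0.55 ± 0.16 (adjusted p = 0.00946), while Jun read -0.47 ± 0.12 (adjusted p = 0.0101), Atf3 -1.09 ± 0.39 (adjusted p = 0.0425) and Fosl2 -0.23 ± 0.08 (adjusted p = 0.0484). The Fosb call was lost without delta-CC-LCD library 4 (log2 change 0.41). The call for Atf3 was lost without library 1, 2 or 3 of either group, with the replicate block, without the low-count filter and by DESeq2 (adjusted p up to 0.155 over all alternatives). That for Fosl2 was lost without delta-CC-LCD library 1 or 2 or delta-IDR library 2, 3 or 4 and with only the compared groups fitted (adjusted p up to 0.115). With libraries summed in pairs, 2 of the 5 calls remained.

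**Figure D5:**
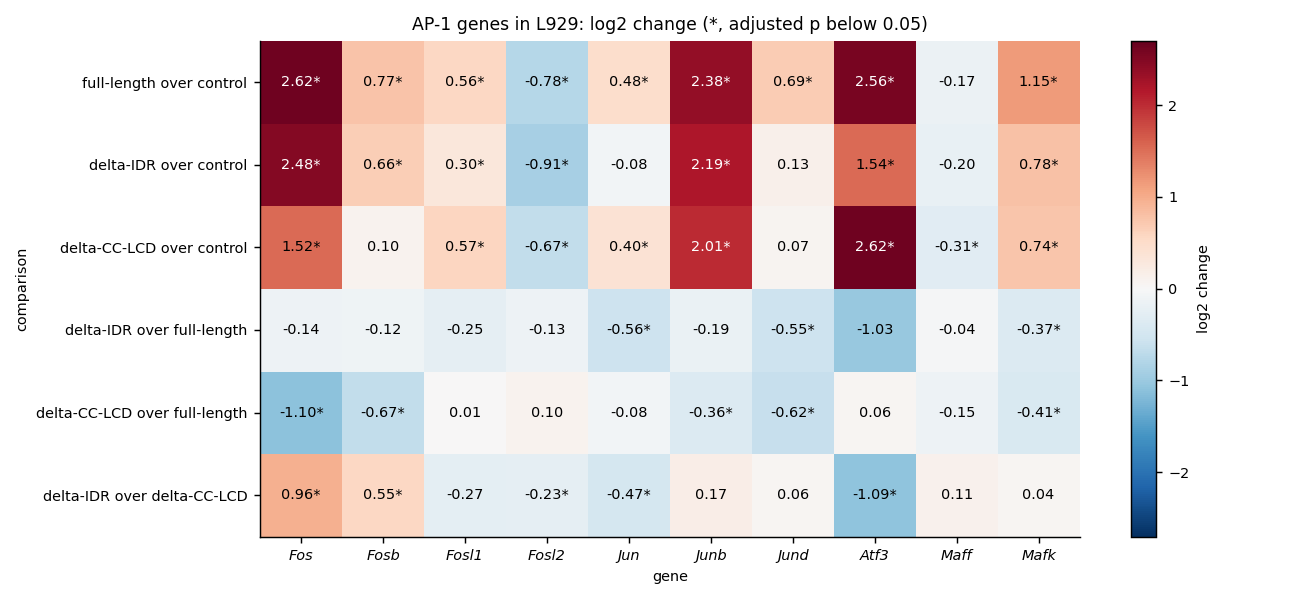
Log2 change of each gene (columns) in the 6 L929 comparisons (rows), printed in each cell and coloured red for higher and blue for lower; an asterisk marks an adjusted p below 0.05. Jun and Jund are called lower for delta-IDR over full-length, and Fos and Fosb lower for delta-CC-LCD over full-length.

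Per gene length, Junb (103 ± 11.2 CPM per kilobase) led in full-length, with Fosl1 (82.6 ± 10.9) and Jund (76.7 ± 3.37) overlapping in sequence, whereas in the control Fosl1 (56.2 ± 3.45) and Jund (47.6 ± 3.44) led and Junb (19.9 ± 0.54) ranked 4 of 10. Of the Fos and Jun pool, Junb made up 33.9% in full-length libraries, 36.9% with delta-IDR and 32.1% with delta-CC-LCD, against 12.2% in the control. The Fos family as a whole made up 33.5%, 35.7% and 39.9%, against 49.0% in the control, where Fosl2 held 13.6%. In L929 the Fos family was mostly Fosl1 and Fosl2. Fos itself held at most 2.147% of the pool in any L929 library and at least 7.991% in any neuron library. The tables were scaled separately, and this difference between cell types was not tested.

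By the same likeness measure over the 4 L929 groups, Dusp5, a phosphatase of ERK, was closest to Junb (0.0492), then Jade2 (0.0675) and Smad7 (0.0841), an inhibitor of TGF-beta signalling. Closest to Fos were Grhl1 (0.194), Csrnp1 (0.284) and Zc3h12c (0.294), to Atf3 Ppl (0.0574), Abhd2 (0.114) and Slco2a1 (0.118), and to Mafk Utp23 (0.0436), Spry4 (0.0597) and Fnip2 (0.0604). The likeness over 4 group means is a description.

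Among genes around AP-1 in L929, 11 of 14 tested genes of turnover and mRNA decay rose and 1 fell in full-length against the control, where 30.3% of all genes were called higher and 28.7% lower (median log2 change 0.28 beside -0.01 for all genes). Zfp36 stood at 139 ± 16.1 CPM in full-length against 11.8 ± 0.879 CPM in the control (3.55 ± 0.10), and Trib1 at 123 ± 5.97 CPM against 19.0 ± 2.51 CPM (2.695 ± 0.07). Of 22 tested upstream kinases and activators 10 rose and 5 fell, near the 59.1% of all genes called in either direction. Srf changed by 1.10 ± 0.05, Map2k4, a kinase of the JNK pathway, by 0.78 ± 0.05 and Elk3 by -0.65 ± 0.04. Srf was lower in delta-CC-LCD than in full-length, by -0.49 ± 0.05 on the log2 scale.

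Of 13 tested other leucine-zipper partners, 3 rose and 6 fell in full-length against the control, also near 59.1%. Bach1, a repressor that pairs with small Mafs such as Mafk, rose by 1.17 ± 0.05, and Nfe2l2, an activator that also pairs with them, changed by -0.43 ± 0.06, and Nfe2l1, related to it, by -0.25 ± 0.03. Of 20 tested AP-1 targets, 9 rose and 5 fell, against 30.3% and 28.7% of all genes. Cdkn1a, the cell-cycle inhibitor p21, read 737 ± 17.5 CPM in full-length against 92.3 ± 3.61 CPM in the control (3.00 ± 0.05), and cyclin D1, encoded by Ccnd1, rose by 0.95 ± 0.03.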

How the data were processed

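The authors deposited raw counts, whole numbers of reads for each of 54532 genes, with a table for each cell type. The submitters' processing notes name HISAT2 2.2.1 and mm10, and the sources used here do not name the read counter, its annotation or its strand option. Groups and replicate numbers come from the sample titles. Each table was fitted alone with edgeR 4.0.16 (R 4.3.3, limma 3.58.1): filterByExpr, which kept 14118 genes in L929 and 17837 in neurons and all 10 members in both, TMM scaling, robust quasi-likelihood fits of all groups, and Benjamini-Hochberg adjustment over all genes of a comparison, with calls below 0.05 and no minimum fold. There were 17 group comparisons and 2 dose tests (slope and curvature on log10 dose, interfering peptide groups). Likeness used named protein-coding genes of at least 2 CPM, for members whose group means span more than 1 on the log2 scale, and named the 3 closest; each list names up to 3 called genes with the smallest p. A gene that this rule names is not reported here. CPM per kilobase divides by the gene length in the tables. The members, lists and tests were chosen with earlier results of these data known. The fits were also run on simulated counts, drawn independently for each library. That run cannot test the effect of likeness between libraries 1 and 3 or 2 and 4. Same-numbered libraries did not deviate together (correlations from -0.212 to 0.166), so numbers were not used as pairs. Tried as alternatives were a replicate block, dose as a rank, DESeq2 1.42.0, no filter on low counts, fits of the compared groups alone, RLE size factors, libraries summed in pairs (1 with 3, 2 with 4) and each library left out. Reads carry no molecular identifiers. Promoter sequences are from RefSeq.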

Additional observations from a re-analysis of the deposited data

Results flagged for a closer look

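In 4 of 110 groups of 4 libraries, 1 library stood apart from the other 3 by Dixon's test, a rate close to the 1 in 20 that chance gives. Each time it was the lowest. Atf3 in control peptide without DEX read 7.161 CPM in library 2, with the other libraries between 8.113 and 8.292 CPM. Maff in control peptide with DEX read 8.541 CPM in library 3, with the others between 10.13 and 10.43 CPM, and the Maff calls at 10, 30 and 100 µM remained under every alternative run, this library left out included. In L929, Fosl2 read 116.7 CPM in full-length library 3, with the others between 127.7 and 129.3 CPM. Mafk read 29.82 CPM in control library 3, with the others between 32.72 and 33.13 CPM.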

How the results depend on the processing

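No log2 change that was called, by edgeR or by an alternative, turned its sign. Counts of members called moved by over 1.5 times as follows. Libraries summed in pairs gave 2 for delta-IDR over delta-CC-LCD (5 in the fit reported), 0 for DEX (1), 2 for 3 µM and 4 for 30 µM over control peptide (5 and 7), 2 for 3 over 1 µM (4), 0 for 10 over 3 µM (3), 0 for 30 over 10 µM (1) and 0 for curvature (3). DESeq2 gave 5 for delta-IDR over full-length (3) and 3 for 30 over 10 µM, and leaving out the low-count filter gave 5 and 2 for these. Fitting only the compared groups gave 2 for DEX and 2 for 30 over 10 µM. A replicate block gave 1 for 10 over 3 µM and 0 for 30 over 10 µM. Replicate numbers did not pair the libraries, and the block moved no other count by that much. With each library left out, counts ran from 9 to 9 for full-length, 7 to 7 for delta-IDR and 7 to 8 for delta-CC-LCD over the control, 3 to 5 for delta-IDR and 5 to 6 for delta-CC-LCD over full-length, 3 to 5 for delta-IDR over delta-CC-LCD, 0 to 2 for DEX, 0 to 0, 4 to 5, 6 to 6, 6 to 7 and 7 to 7 for 1, 3, 10, 30 and 100 µM over control peptide, 4 to 4, 1 to 2, 0 to 1 and 0 to 0 for the 4 steps, 7 to 9 for DEX with 100 µM over no DEX, 5 to 7 for slope and 2 to 3 for curvature. Each member in each test gave 190 results, called or not. RLE size factors changed the call status of 0 of them, and summing in pairs ended 28 calls. Only results called in the fit reported could lose a call, so these 28 are a larger share of the calls than of the 190 results. The cause was not tested. Summing in pairs leaves 2 values per group. Atf3 in L929 is limited by depth.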
